A study of Mus musculus with 2 samples.

Results

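The miR-17-92 cluster is a set of 6 microRNA hairpins (Mir17, Mir18, Mir19a, Mir20a, Mir19b-1 and Mir92-1) that are cut from 1 primary transcript, the long non-coding RNA Mir17hg of mouse chromosome 14. The members were chosen by their place in that transcript, and all 6 were among the 1973 counted genes. Small RNA fragments shorter than 30 nt had been sequenced from forebrain of mouse embryos of strain B6NCrl at 10.5 days of development, with male and female embryos pooled. The samples form 1 group of 2 libraries, replicate 1 from 69 pooled embryos and replicate 2 from 51, with no treatment, mutation or comparison group, so pools rather than single embryos are the replicates.

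MicroRNA hairpins are cut out of a primary transcript in the nucleus by Drosha and trimmed by Dicer in the cytoplasm to a mature RNA, which guides Argonaute to messenger RNAs that pair with its seed, the bases from 2 to 8. Hairpins of 1 transcript are made together, yet each can be cut, loaded and degraded at its own rate. The miR-17-92 cluster is known as a target of MYC and E2F factors and as a promoter of proliferation and survival, with Bim (Bcl2l11) and Cdkn1a among its known targets. In embryonic neocortex it is known to favour the expansion of neural progenitors.

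Mir17hg (ENSMUSG00000089726.2, a long intergenic non-coding RNA gene) occupies chr14:115042879-115046727 of mm10 on the plus strand and has 2 annotated exons. All 6 hairpins lay in exon 2, within 836 bases. Mir17 came first, 792 bases from the annotated start of the gene, and Mir92-1 last, 1548 bases from it. The gaps between consecutive hairpins were 96, 53, 75, 41 and 35 bases. The hairpins were 80 to 107 bases long, with a GC content between 43.68% and 47.5%. Their RefSeq coordinates (GRCm38) were the same as those of GENCODE M21, and each RefSeq hairpin was found whole in the Mir17hg transcript.

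The 6 hairpins carry 4 seeds, which the mature RNAs below show in capitals, in transcript order and 5′ to 3′, from RefSeq (GRCm38). They give the seed families by which counts are grouped below. The letters also decide which reads could be placed at 1 locus.
miR-17-5p: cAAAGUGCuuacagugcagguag
miR-18a-5p: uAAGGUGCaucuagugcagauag
miR-19a-3p: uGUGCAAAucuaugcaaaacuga
miR-20a-5p: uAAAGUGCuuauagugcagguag
miR-19b-3p: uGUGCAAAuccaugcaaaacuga
miR-92a-3p: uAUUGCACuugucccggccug
Mir17 and Mir20a share the miR-17 seed, Mir19a and Mir19b-1 share the miR-19 seed, and Mir18 and Mir92-1 carry the miR-18 and miR-92 seeds. The miR-17 and miR-18 seeds lie on the 5′ arm, and the miR-19 and miR-92 seeds on the 3′ arm. Differences are written with the base of the first RNA, its position from 1 at the 5′ end, and the base of the second. From miR-17-5p to miR-20a-5p they were C1U and C12U, so both lie outside the seed. From miR-20a-5p to miR-18a-5p they were A4G, U9A, A11C and G20A, and A4G alone falls in the seed. From miR-19a-3p to miR-19b-3p there was a single difference, U11C.

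Among the 1005 hairpins of the RefSeq table, the mature sequences of miR-17-5p, miR-18a-5p, miR-19a-3p and miR-20a-5p each occurred in 1 hairpin. The sequences of miR-19b-3p and miR-92a-3p each occurred in 2, the second copies being Mir19b-2 and Mir92-2 of a paralogous cluster on chromosome X. Each became particular to its Mir17hg hairpin among these hairpins once 1 hairpin base was added after its 3′ end. Upstream, 3 added bases were needed for miR-19b-3p and 2 for miR-92a-3p. The deposited counts leave out reads with several possible places, so the counts of Mir19b-1 and Mir92-1 are lower limits. The counts are per hairpin and do not tell the 5′ arm from the 3′ arm, or full-length from trimmed or extended reads.

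Gene counts on the gene's own strand came to 3256070 in replicate 1 and 3574530 in replicate 2, while 2577249 and 2780180 reads mapped to several places. Levels are given as CPM, the gene's counts per 1000000 gene counts. Of the marker miRNAs, the neural and forebrain list of 7 counted genes summed to 19967 and 17480 CPM, nearly all of it Mir92b. The Mir9 and Mir124a genes of that list were at 5.58 CPM for Mir9-2, 339 CPM for Mir9-3 and between 1.02 and 4.82 CPM for the 3 Mir124a genes, each a gene of several loci. The 6 hindbrain and trunk genes summed to 245 and 309 CPM, the 3 red blood cell genes to 693 and 792 CPM, the 3 leukocyte genes to 724 and 642 CPM, Mir122 of liver to 10.7 and 9.79 CPM, and the endothelial Mir126a to 29029 and 31930 CPM. Of the 4 muscle genes, Mir206 had 9 and 8 counts, while Mir1a-1, Mir133a-1 and Mir133a-2 had none in either library. Those 3 are genes of several loci, so reads shared between loci are missing from them, and for reads placed at 1 locus a count of 0 leaves room for up to 3 counts in each library. In whole tissue, fewer cells of a type and less RNA per cell cannot be told apart, and the part of each cell type in the levels below was not tested.

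The 6 hairpins held very different amounts of the counted reads. Both hairpins with the miR-17 seed stood highest, Mir18 and Mir92-1 came next, and both hairpins with the miR-19 seed stood far below. The cluster as a whole held 15.5% of the gene counts in replicate 1 (95% exact Clopper-Pearson interval 15.42 to 15.50) and 16.2% in replicate 2 (16.11 to 16.19). The intervals express counting error alone and not the variation between pools. PCR copies of a read are counted as if they were separate molecules, so the intervals can be too narrow even for counting error.

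Mir17, the first hairpin of the transcript, had 305770 counts in replicate 1 and 352618 in replicate 2, or 93908 and 98647 CPM. Mir20a, its sister with the same seed, had 115681 and 132856 counts, or 35528 and 37167 CPM. Both libraries placed the counted reads of Mir17 above those of Mir20a, by 2.65-fold ± 0.0077 (SD, n = 2). That SD shows differences between the libraries only. An effect of sequence on counts shared by both libraries would not appear in it or in later SDs, and was not tested. Over all counted genes Mir17 and Mir20a had ranks 2 and 3, after Mir335 at 154722 CPM.

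Mir18, whose seed differs from the miR-17 seed at 1 base, had 46480 and 53892 counts, or 14275 and 15077 CPM. It lay 6.56-fold ± 0.025 below Mir17 and 2.48-fold ± 0.017 below Mir20a (SD, n = 2). Its level was close to that of Mir322 (14692 ± 535 CPM), the gene next above it, and Mir106b (14390 ± 368 CPM), the gene next below. Those differences were smaller than the spread of Mir18 itself, 14676 ± 567 CPM (SD, n = 2).

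Mir92-1, the last hairpin, had 34144 and 36718 counts, or 10486 and 10272 CPM, as a lower limit. In the counted reads it lay 1.41-fold ± 0.075 below Mir18 and 9.28-fold ± 0.46 below Mir17 (SD, n = 2). Its place below Mir18, Mir20a and Mir17 holds for the counted reads only, since reads shared with Mir92-2 could raise it. Mir423 (11053 ± 559 CPM) and Mir369 (10300 ± 938 CPM) were next to it in the order of all genes.

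Mir19a had 1052 counts in replicate 1 and 983 in replicate 2, or 323 and 275 CPM (rank 170). Mir19a and Mir19b are known as the members that carry much of the oncogenic activity of the cluster in lymphoma. Among the RefSeq hairpins the mature sequence of Mir19a was found in 1, and other places in the genome were not searched. It differs from miR-19b-3p by U11C alone, and how the counting treated mismatches is not known. Mir19a lay 325-fold ± 48 below Mir17 (SD, n = 2). It lay below the counted reads of Mir92-1 by 32.5-fold in replicate 1 and 37.4-fold in replicate 2. It stood between Mir185 (306 CPM) and Mir125b-2 (291 CPM), the latter a gene of several loci. At its depth the 95% exact intervals were 304 to 343 CPM in replicate 1 and 258 to 293 CPM in replicate 2, which do not overlap. The intervals of Mir17, Mir20a and Mir18 did not overlap between the libraries either, while those of Mir19b-1 and Mir92-1 did. For all genes the share without overlap was not computed.

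Mir19b-1 had 272 and 313 counts, or 83.5 and 87.6 CPM, as a lower limit. The counted reads lay 1125-fold ± 1.7 below Mir17 and 3.50-fold ± 0.51 below Mir19a (SD, n = 2). The SD of 1.7 comes from 2 close values and is narrower than the counting error. For Mir19b-1 the exact intervals, computed as for Mir19a, were 73.9 to 94.1 CPM in replicate 1 and 78.1 to 97.8 CPM in replicate 2. In the counted reads Mir669c (86.7 ± 7.5 CPM) and Mir128-1 (84.2 ± 14 CPM) stood beside it, within the spread. With reads of miR-19b-3p left out wherever they mapped to both copies, its order relative to the other hairpins is not known.

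In the order Mir17, Mir20a, Mir18, Mir92-1, Mir19a, Mir19b-1, the counted reads of each of the 5 pairs of neighbours differed by more than the spread between libraries. Because Mir92-1 and Mir19b-1 are lower limits, their places below any other hairpin hold for the counted reads only. One read of this size class covers at most 1 mature arm, so the levels were not divided by length. Divided by hairpin length, all 5 pairs kept their order and still differed beyond the spread.

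**Figure D1:**
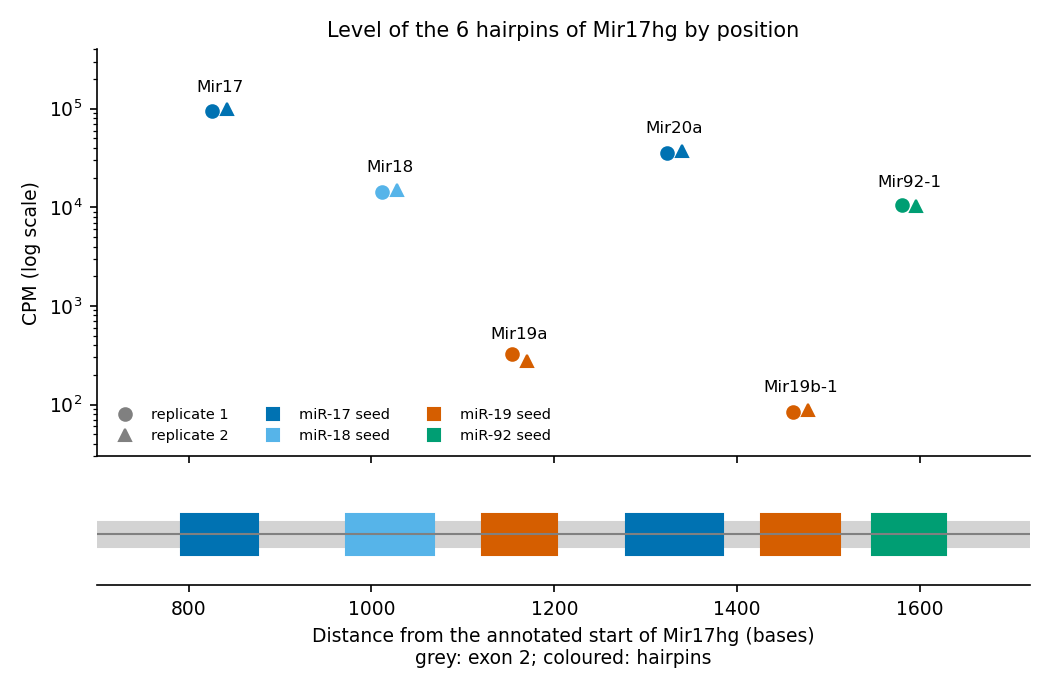
Level of each hairpin in CPM (log scale) against its distance in bases from the annotated start of Mir17hg, with 1 point per library, coloured by seed family, above a map of the hairpins in exon 2. Mir17 at 93908 and 98647 CPM is the highest, and the hairpins with the miR-19 seed, Mir19a and Mir19b-1, lie at 323 CPM or lower.

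The level did not run in 1 direction along the transcript. From the first to the last hairpin, the log2 ratio to Mir17 was −2.71 ± 0.0055 for Mir18, −8.33 ± 0.22 for Mir19a, −1.40 ± 0.0042 for Mir20a, −10.13 ± 0.0024 for Mir19b-1 and −3.21 ± 0.071 for Mir92-1 (SD, n = 2). Mir19a was thus followed by the far higher Mir20a, 75 bases on. In the counted reads Mir19b-1 was followed by the higher Mir92-1, 35 bases on. Both of these are lower limits, so which of them is higher is not known. The SD of Mir19b-1 comes from 2 close values and is narrower than its counting error.

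Within the cluster, Mir17 made up 60.7% of the counts of replicate 1 and 61.1% of those of replicate 2. Mir20a made up 23.0% in both libraries, Mir18 9.23% and 9.33%, and Mir92-1 6.78% and 6.36%. Mir19a held 0.209% and 0.170%, and Mir19b-1 0.0540% and 0.0542%. By seed, the miR-17 family held 83.9% ± 0.26, the miR-18 family 9.28% ± 0.071, the miR-92 family 6.57% ± 0.30 and the miR-19 family 0.244% ± 0.027 (SD, n = 2). The 4 hairpins of a single locus held 93.4% ± 0.30 of the counts. Reads of Mir19b-1 and Mir92-1 that are shared with other loci are missing from the total. With them the shares of the 4 single-locus hairpins could be lower, so all these shares hold for the counted reads only.

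**Figure D2:**
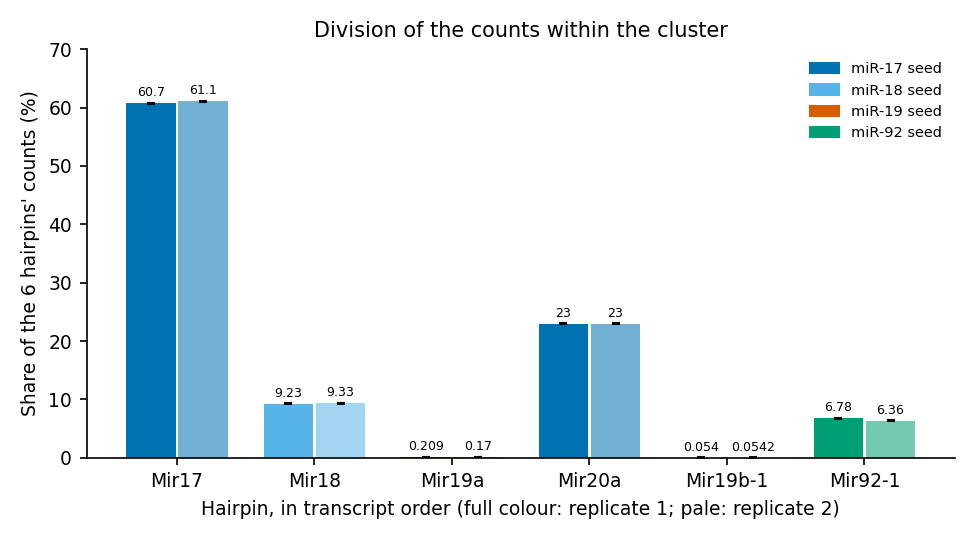
Share of the 6 hairpins' counts (%) held by each hairpin, in transcript order, with replicate 1 in full colour, replicate 2 pale, and error bars for the 95% exact binomial interval. Mir17 (60.7% and 61.1%) and Mir20a (23.0% in both) hold most of the counts, while the bars of Mir19a and Mir19b-1 do not rise visibly above 0.

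The pools divided the counts of the transcript in almost the same way. An exact binomial test asked whether the counts of each gene split between the libraries as their TMM sizes do, with Benjamini-Hochberg adjustment over the 401 genes whose mean count reached 10. The test weighs a difference against counting error alone, and it compares the 2 libraries, not conditions. Of the 6 members, all tested, 3 were called lower and 1 higher in replicate 1. Over all tested genes 43.4% were called, 23.7% as lower and 19.7% as higher, and of the 271 genes counted 100 times or more on average, which include all 6 members, 60.1% were called. The share of members called was thus near that of genes of such depth. The median log2 ratio of replicate 1 over replicate 2 was −0.10 over the members and −0.03 over all tested genes, and its median size was 0.10 and 0.17.

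Mir17, Mir20a and Mir18 were lower in replicate 1 by nearly the same amount. By the exact binomial test, the log2 ratio was −0.10 for Mir17 (adjusted p = 9.3e-178), −0.10 for Mir20a (adjusted p = 4.4e-60) and −0.11 for Mir18 (adjusted p = 3.6e-32). Mir19a went the other way and was higher in replicate 1 by 0.20 (adjusted p = 0.0046, exact binomial test). Mir19b-1, at −0.10, did not pass (adjusted p = 0.61, exact binomial test). Mir92-1, at −0.00097, did not pass either (adjusted p = 0.99), but with total-count scaling, under which 44.1% of tested genes were called, its ratio of 0.03 did (adjusted p = 0.015, exact binomial test). None of the 4 calls exceeded a difference of 25%, while 11.5% of all tested genes were called with a larger one.

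**Figure D3:**
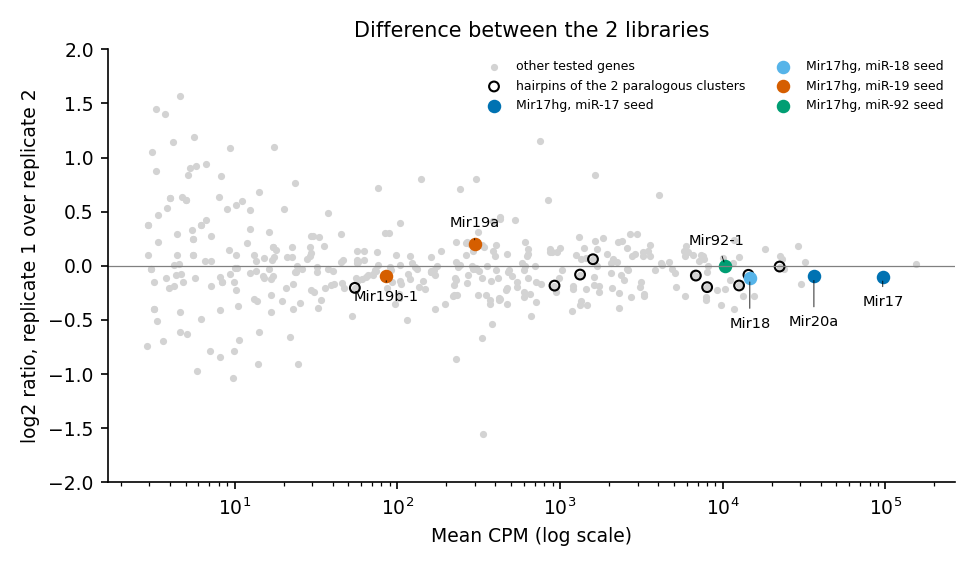
Log2 ratio of replicate 1 over replicate 2 against mean CPM (log scale) for the tested genes (grey), the hairpins of Mir17hg (coloured by seed) and those of its paralogous clusters (open circles); 3 tested genes lie outside the plotted ratios. The 6 hairpins lie between −0.11 and 0.20, with Mir19a the highest.

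On the opposite strand, none of the 6 hairpins had a count in either library. With no count seen, as many as 3 remain possible, a limit of 0.921 CPM for replicate 1 and of 0.839 CPM for replicate 2.

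Mir17hg has a pair of paralogous clusters. One lies on the minus strand of chromosome X with Mir106a, Mir18b, Mir20b, Mir19b-2, Mir92-2 and Mir363, and carries all 4 seeds. The other, with Mir106b, Mir93 and Mir25, lies on chromosome 5 in Mcm7, a gene of the replicative helicase, and carries the miR-17 and miR-92 seeds. Mir17hg held 15.8% ± 0.49 of all gene counts, the Mcm7 cluster 3.81% ± 0.013 and the chromosome X cluster 3.0% ± 0.18 (SD, n = 2). The libraries of Mir17hg did not overlap with those of either paralogous cluster.

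Matched hairpins with the miR-17 seed were more abundant in Mir17hg. Mir17 exceeded Mir106a (11950 and 13264 CPM) by 7.65-fold ± 0.30 and Mir106b (14131 and 14650 CPM) by 6.69-fold ± 0.062. From miR-17-5p to miR-106a-5p the mature sequences differ by U10A alone, and how the counting treated mismatches is not given in the sources used here, so how far a misread base moved counts between Mir17 and Mir106a is not known. The mature sequences are shown for this close pair.
miR-17-5p: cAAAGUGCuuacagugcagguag
miR-106a-5p: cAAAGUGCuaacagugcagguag
Mir20a exceeded Mir20b by 5.31-fold ± 0.016 and Mir93, the highest hairpin of the Mcm7 cluster at 22561 and 22185 CPM, by 1.62-fold ± 0.071 (SD, n = 2).

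For the other seeds, Mir18 exceeded Mir18b (877 and 974 CPM) by 15.9-fold ± 0.57. Mir92-1 exceeded Mir92-2 by 6.51-fold ± 0.20 and Mir25 by 7.81-fold ± 0.30, with Mir92-1 and Mir92-2 both lower limits. Mir19b-1 and Mir19b-2 (51.6 and 58.2 CPM) were closest, 1.56-fold ± 0.081 apart (SD, n = 2). The hairpin with the miR-19 seed was the lowest of the chromosome X cluster too, with Mir106a 230-fold ± 2.6 above Mir19b-2, itself a lower limit. In the test between the libraries, 4 of the 6 chromosome X hairpins and 2 of the 3 Mcm7 hairpins were called lower in replicate 1 and none higher, with median log2 ratios of −0.18 and −0.08. Over all tested genes 43.4% were called, 23.7% as lower and 19.7% as higher. At a mean count of at least 100, 60.1% were called in either direction, near the share of these hairpins called. The share called lower at that depth was not computed, so the common direction of these calls has no matched background.

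**Figure D4:**
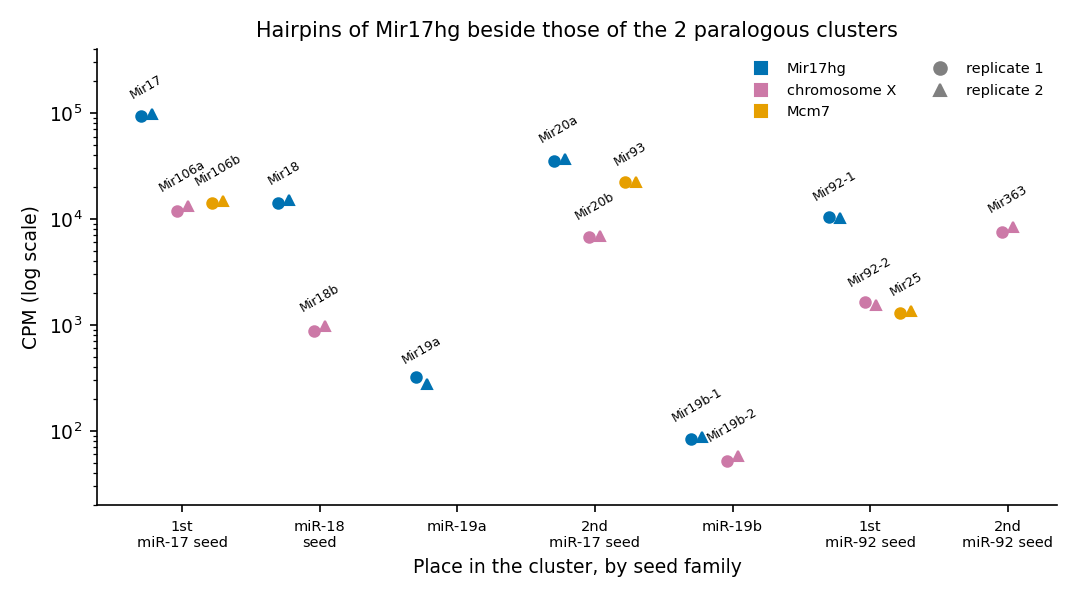
CPM (log scale) of the hairpins of Mir17hg and of the paralogous clusters on chromosome X and in Mcm7, arranged by place and seed, with 1 point per library. Mir17, Mir18, Mir20a and Mir92-1 lie above their counterparts, and the miR-19 hairpins of Mir17hg and chromosome X lie lowest.

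A search of the mature RNAs in the RefSeq table for the 4 seeds gave the counted genes that share them. The miR-17 seed was found at 7 genes, which together held 18.9% ± 0.57 of all gene counts, and 70.2% ± 0.25 of that came from Mir17hg. The 5 other genes were Mir93, Mir106b, Mir106a, Mir20b and Mir6383, and Mir6383 had no count in either library, which allows up to 3 counts. The miR-18 seed was found at Mir18 and Mir18b, which held 1.56% ± 0.064, and Mir17hg gave 94.1% ± 0.20 of it. The miR-19 seed was found at 3 genes with 0.0439% ± 0.0026 of the counts, 87.5% ± 1.8 of it from Mir17hg (SD, n = 2), and 2 of those genes are lower limits.

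The miR-92 seed was the exception among the 4, since most of its counted reads came from outside Mir17hg. Its 7 genes held 4.0% ± 0.11 of the counts, and Mir92-1 gave 26% ± 0.37 of that (SD, n = 2). Mir92b, a miRNA known from neural progenitors, was the highest at 19407 and 17048 CPM, and Mir92-1 stood at 0.571 ± 0.044 of its level. Mir363 followed at 7561 and 8483 CPM, then Mir92-2 (1646 and 1545 CPM), Mir25 (1306 and 1352 CPM), Mir32 (379 and 462 CPM) and Mir367 (9.21 and 11.7 CPM). From miR-92a-3p to miR-92b-3p the differences were U10C and G21C, both outside the seed, and miR-92b-3p is 1 base longer. The share of Mir92-1 is uncertain, because reads of miR-92a-3p that mapped to both of its loci are missing from the counts of Mir92-1 and Mir92-2.
miR-92a-3p: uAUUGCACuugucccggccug
miR-92b-3p: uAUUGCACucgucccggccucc

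**Figure D5:**
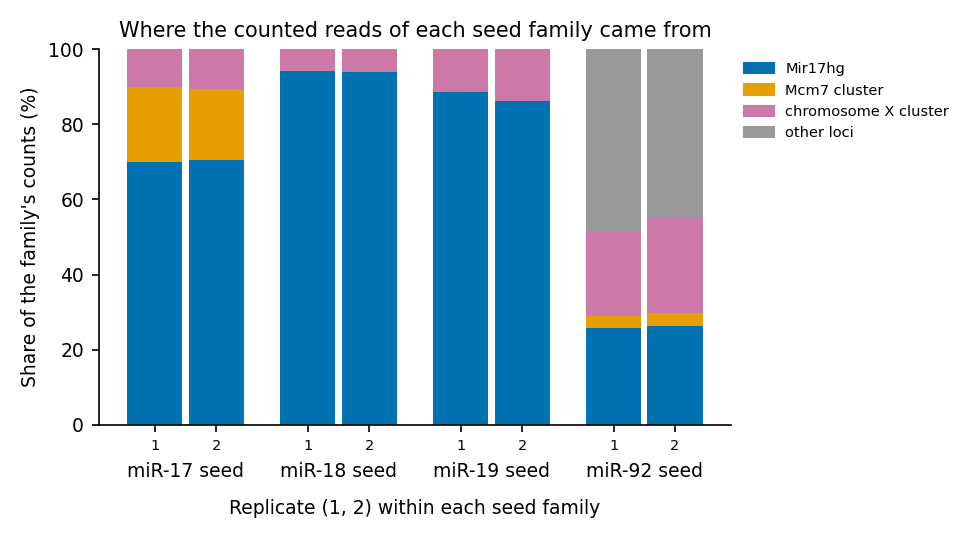
Share (%) of the counts of each seed family that came from Mir17hg, the Mcm7 cluster, the chromosome X cluster and other loci, in replicates 1 and 2. Mir17hg supplies 70.2% of the miR-17 seed counts on average, but 26% of the miR-92 seed counts, where Mir92b forms most of the other loci.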

How the data were processed

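Values are raw read counts per gene as the authors deposited them, on mm10 with genome annotation M4 per the authors' file notes. Reads mapped to several places were tallied apart and given to no gene. The aligner, the adapter trimming and the counter are not stated there. Counts on the gene's own strand entered all values, and they were 96.7% and 96.4% of those on either strand. Tallies of unmapped (24.6% and 25.4% of reads), multiply mapped (30.1% and 28.8%) and unannotated reads (7.28% and 8.82%) stayed out of totals.

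Symbols and coordinates came from GENCODE M21, which has 1894 of the 1973 identifiers, and sequences from RefSeq (GRCm38), which matched all 6 members. CPM used the gene total, and ratios used TMM sizes from edgeR 4.0.16 in R 4.3.3, with 0.5 counts added. DESeq2 1.42.0 size factors, total counts, other filters and denominators were alternatives. SciPy 1.17.1 gave the exact binomial tests, called at an adjusted p under 0.05, and exact intervals at 95%. Data for 401 genes were simulated at the depths of these 2 libraries, with sampling (Poisson) noise alone. Of the genes given a 2-fold change, 86.8% passed the test. So did 61.4% of those given a 25% change and 1.67% of those left alone. The real libraries differed by more than such noise, so these rates do not carry over to them. The chi-square between the libraries over 483 genes was 45.4 times the value expected from sampling noise, so they are not 1 library deposited again.

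The named genes are the members, the hairpins of both paralogous clusters, other genes with one of the seeds, the gene next above and below each member in mean CPM, and fixed marker miRNAs. Mir9-1, Mir142 and Mir1a-2 of the marker lists were not analysed here. Members and lists were chosen with earlier results of these data known.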

Additional observations from a re-analysis of the deposited data

How the results depend on the processing

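In the counted reads the order of the hairpins, with all 5 pairs of neighbours beyond the spread, was kept after division by hairpin length. Reads on either strand, all mapped reads or gene counts without Mir335 as denominator, TMM sizes and DESeq2 size factors gave it too. Within a library those settings scale all 6 hairpins alike, so they cannot change the order and do not test it. The share of the cluster was 15.3% with reads on either strand, 7.90% of all mapped reads and 18.7% without Mir335. Among the 4 single-locus hairpins, Mir17 held 65.2%, Mir20a 24.6% and Mir18 9.94%, and the miR-17, miR-18 and miR-19 families held 89.9%, 9.94% and 0.203%. That denominator gives the miR-92 family no value. With a pseudocount of 5 counts the log2 ratio of Mir19b-1 to Mir17 was −10.11. Members called between the libraries numbered 4 without a filter on low counts (7.91% of 1973 genes called), at a mean count of 100 (60.1% of 271) and with reads on either strand (44.1% of 413), and 5 with total counts or DESeq2 size factors, which added Mir92-1 (44.1% of tested genes called with each). With a minimum difference of 25% the exact binomial test called 0 members, while Mir17, Mir18, Mir19a and Mir20a passed without it. Leaving out a library leaves no comparison, and levels and shares from either library alone stayed within 1 SD of the mean, as 2 values always do. The cluster's part of each seed family was also computed with either strand and each library alone, an alternative chosen after seeing the data, and it stayed within 1 SD. No paired analysis was possible because there is 1 group. Mir19b-1 had the fewest counts of the 6, 272 and 313, and reads mapped to several places limit Mir19b-1 and Mir92-1.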
